A study of Mus musculus with 12 samples.

Results

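The L1, NCAM and contactin adhesion molecules studied here are 10 cell-surface proteins with immunoglobulin domains that sit on growing axons. Their genes, *L1cam*, *Chl1*, *Nrcam*, *Nfasc*, *Ncam1*, *Ncam2*, *Cntn2*, *Cntn4*, *Alcam* and *Dscam*, form a list of symbols drawn up with earlier results of these data known and are 10 of the 24480 genes in each table of counts. RNA-seq was done on the dorsolateral geniculate nucleus (dLGN), the visual relay of the thalamus, at postnatal day 0, in 12 libraries that each pooled 3 animals. *Sox2* mutants were Sox2 flox/flox with the Ror-alphaCre allele, and their controls were Sox2 flox/flox or Sox2 flox/+ with no Cre. *Nr2f1* mutants were Nr2f1 flox/flox with Ror-alphaCre, and the labels of their controls name both Nr2f1 flox/flox with Ror-alphaCre and the absence of Cre, whereas the paper describes littermates that were Nr2f1 flox/flox or Nr2f1 flox/+ and carried no Cre. Cre is expressed from the *Rora* locus, so deletion was limited to cells that had expressed *Rora*. In the *Sox2* line, and by the paper's description in the *Nr2f1* line, mutants and controls also differed in the Cre allele itself. Each of the 4 groups had 3 libraries, no strain is stated, and the animals within a pool cannot be told apart. Libraries are named as in the deposited tables, with CTRL_1, CTRL_2, CTRL_3 and MUT_1, MUT_3, MUT_4 in the *Sox2* line and CTRL_B, CTRL_D, CTRL_E and MUT_A, MUT_B, MUT_C in the *Nr2f1* line, and values are given in that order.

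Axons carry these proteins on their growth cones and shafts, where they bind copies of themselves or of each other on neighbouring axons, glia and targets and so help axons to bundle, to recognise their path and to stop. L1 family proteins (L1CAM, CHL1, NRCAM and neurofascin) span the membrane and can hold on to the ankyrin and spectrin skeleton inside the cell, contactins are tied to the outer face of the membrane by a lipid anchor and signal through partners, and NCAM proteins can carry long polysialic acid chains that loosen adhesion. In the visual system several of them are known for roles in retinal and thalamocortical axons, and L1CAM and CHL1 are known for thalamocortical axon guidance.

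Total counts lay between 39293465 and 50095344 per library. The 10 genes together took from 0.267% of the counts (*Sox2* MUT_4) to 0.376% (*Nr2f1* CTRL_B), and the lowest count of any of them in any library was 1224 (*Alcam*, CTRL_B). Levels are given in CPM, counts scaled to the size of each library after TMM normalization within a line, with the mean ± SD of a group's 3 libraries where groups are summarised. Each line's mutants were tested against that line's controls by the edgeR quasi-likelihood F-test over all genes that passed a filter on low counts, and differentially expressed genes (DEG) had a false discovery rate (FDR) below 0.01. The paper names the same test, normalization and threshold and reports more DEG in each line than were called here. A gene that missed the threshold here can thus be a DEG there, and what lies behind this was not tested. Changes are log2 fold changes, mutant over control, with their standard error (SE). Over all genes the median SE was 0.11 (*Sox2* line) and 0.09 (*Nr2f1* line). With 3 libraries against 3, an exact two-sided permutation test of 1 gene cannot give a p below 0.1.

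Both deletions were visible in the targeted transcripts. *Sox2* stood at 361, 363 and 382 CPM in the *Sox2* controls and at 116, 150.4 and 152 CPM in the mutants. All the mutants were far below all the controls, and *Sox2* fell with a log2 fold change of -1.40 (edgeR FDR 4.83e-05, SE 0.10), or -1.36 without CTRL_3. *Nr2f1* stood at 311, 370.4 and 380.1 CPM in the *Nr2f1* controls and at 105, 151 and 101 CPM in the mutants. These groups did not overlap either, and *Nr2f1* fell with a log2 fold change of -1.57 (edgeR FDR 0.000348, SE 0.14). Each targeted gene was also measured in the other line. *Sox2* stood at 351, 343 and 374 CPM in the *Nr2f1* controls and at 238, 279 and 212 CPM in the *Nr2f1* mutants, and every mutant was below every control (log2 fold change -0.55, edgeR FDR 0.00635, SE 0.09). That call was lost without CTRL_B (log2 fold change -0.57), CTRL_D (-0.58), CTRL_E (-0.52), MUT_A (-0.54) or MUT_C (-0.47), and with male-specific genes as a covariate (-0.54). *Nr2f1* in the *Sox2* line, at 308, 345 and 344 CPM in controls and 227, 313 and 221 CPM in mutants, overlapped through MUT_3 and did not pass (log2 fold change -0.39, edgeR FDR 0.0559, SE 0.13), but it passed without MUT_3 (-0.57), and it was -0.35 without CTRL_3.

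The tissue was checked against marker genes listed for each cell type. The 8 markers of thalamic glutamatergic neurons, of which *Tcf7l2* was the most abundant, summed to 2087, 1917 and 1641 CPM in *Sox2* controls and 1608, 1595 and 1583 CPM in *Sox2* mutants. In these mutants 4 of the 8 were lower DEG (*Slc17a6*, *Rora*, *Lef1* and *Slc6a4*) and 2 were higher DEG (*Gbx2* and *Calb2*). In the *Nr2f1* line the sums were 2051, 1965 and 2106 in controls and 2141, 2167 and 1913 in mutants, with *Lef1* and *Slc6a4* as lower DEG. Lower DEG numbered 2 without MUT_B, 1 without CTRL_E and 0 without any other library, while 1 marker was a higher DEG without MUT_A and 1 without MUT_C. Astrocyte markers, led by *Aqp4*, summed to 1211, 1208 and 1353 CPM in *Sox2* controls and 1812, 1998 and 2014 CPM in the mutants, and 5 of the 7 were higher DEG. Microglial markers, led by *Csf1r*, summed to 119.5, 122.7 and 131 CPM in *Sox2* controls and 242.5, 267.1 and 276.7 CPM in the mutants, and 6 of the 7 were higher DEG. For each of the 7 astrocyte and 7 microglial markers, all the *Sox2* mutants were thus above all their controls. In the *Nr2f1* line astrocyte markers summed to 1007, 985.6 and 1002 CPM in controls and 1150, 1140 and 1283 CPM in mutants, with 1 of the 7 a DEG, or 2 without MUT_B and 0 without any other library. Microglial sums there were 97.03, 102.2 and 109.9 CPM in controls and 125.3, 116.3 and 145.5 CPM in mutants, and edgeR called 0 of the 7, against 4 at an unadjusted p below 0.05 and 2 by DESeq2, and it called 3, all higher, without MUT_B (median log2 fold change 0.489). A lower level in such tissue can come from fewer cells of a type or from less RNA per cell, and the 2 cannot be told apart.

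Other tissue differed between pools as well. The 6 markers of meningeal fibroblasts, led by *Col3a1*, summed to 912.4, 903 and 1809 CPM in *Sox2* controls and 1388, 3150 and 1652 CPM in mutants. In the *Nr2f1* line they summed to 691.3, 1006 and 1050 CPM in controls and 1896, 1002 and 2330 CPM in mutants. CTRL_3 and MUT_3 were the high pools of the *Sox2* line in their groups, and MUT_B was the low pool among the *Nr2f1* mutants. The 6 markers of pallial and hippocampal neurons, led by *Neurod2*, summed to 46.11, 34.96 and 22.93 CPM in *Sox2* controls and 129.9, 39.18 and 75.33 CPM in mutants, with 1 DEG, the higher *Bcl11b*. In the *Nr2f1* line their sums were 32.64, 34.07 and 25.03 CPM in controls and 33.71, 26.33 and 41.1 CPM in mutants, led by *Bcl11b*, and *Emx1* was under 1 CPM in all of these libraries. Markers of GABAergic neurons (9, led by *Gad1*) summed to 118.3, 135.6 and 89.22 CPM in *Sox2* controls and 218.1, 158.3 and 175.4 CPM in mutants. For all 9 every *Sox2* mutant was above every control, with a median log2 fold change of 1.16, or 0.628 without MUT_1. Sums in the *Nr2f1* line were 123.8, 126.6 and 117.4 CPM in controls and 179.5, 114.2 and 237.8 CPM in mutants, and the groups overlapped for all 9 (median log2 fold change 0.52), with MUT_B again the low pool among the mutants. That median was 0.244 without MUT_C and 0.742 without MUT_B. Oligodendrocyte lineage markers (8, led by *Olig1*) held 1 DEG in each line, the higher *Mbp*, and in the *Sox2* line 3 of the 8 were without overlap, of which *Mog* was lower in the mutants. The count in that line was 0 without CTRL_1, CTRL_2, MUT_1 or MUT_4 and 1 without MUT_3. Markers of neurons of any kind (6, led by *Tubb3*) held 1 DEG in *Sox2* mutants, the lower *Syt1*. In *Sox2* mutants edgeR called 0 markers of GABAergic neurons (9), endothelial cells (5), pericytes (5), meningeal fibroblasts (6) and dividing cells (5), where 9, 4, 4, 3 and 4 had an unadjusted p below 0.05 and DESeq2 called 5, 0, 1, 0 and 1. Without CTRL_3 edgeR called 0, 4, 4, 0 and 2 of these lists, all higher, with a GABAergic median log2 fold change of 0.83. It then called 6 astrocyte, 7 microglial, 2 oligodendrocyte lineage and 0 pallial markers, and the counts for thalamic neurons and neurons of any kind were as with all libraries. In *Nr2f1* mutants edgeR called 0 of the same lists, where 5, 5, 2, 6 and 0 had an unadjusted p below 0.05 and DESeq2 called 0, 2, 1, 0 and 0, and it called 0 markers of neurons of any kind (2 and 1) and of pallial neurons (1 and 0). Without MUT_B it called 5 of the 9 GABAergic, 4 of the 5 endothelial, 2 of the 5 pericyte, 6 of the 6 meningeal and 0 of the 5 dividing cell markers, all higher, with 1 higher pallial and 1 lower marker of neurons of any kind. The calls that *Nr2f1* mutants gain without MUT_B, given below, stand beside these, and the part of such tissue in them was not tested. No marker on these lists was at 0 in all the libraries of a line.

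The *Sox2* control CTRL_3 stood apart from CTRL_1 and CTRL_2 in the adhesion genes. All 10 were lower in it than the mean of the other two controls, at a median of 76.3% of that mean, from 69.6% for *Cntn2* to 95.1% for *Alcam*. Over all genes the median was 99%, and over the markers of neurons of any kind it was 87.2%. It was also the *Sox2* control with the most meningeal RNA. The log2 fold changes of genes in the *Sox2* line and the counts and medians over gene lists are therefore given with and without it, and the latter counts and medians were chosen after seeing the data.

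**Figure D1:**
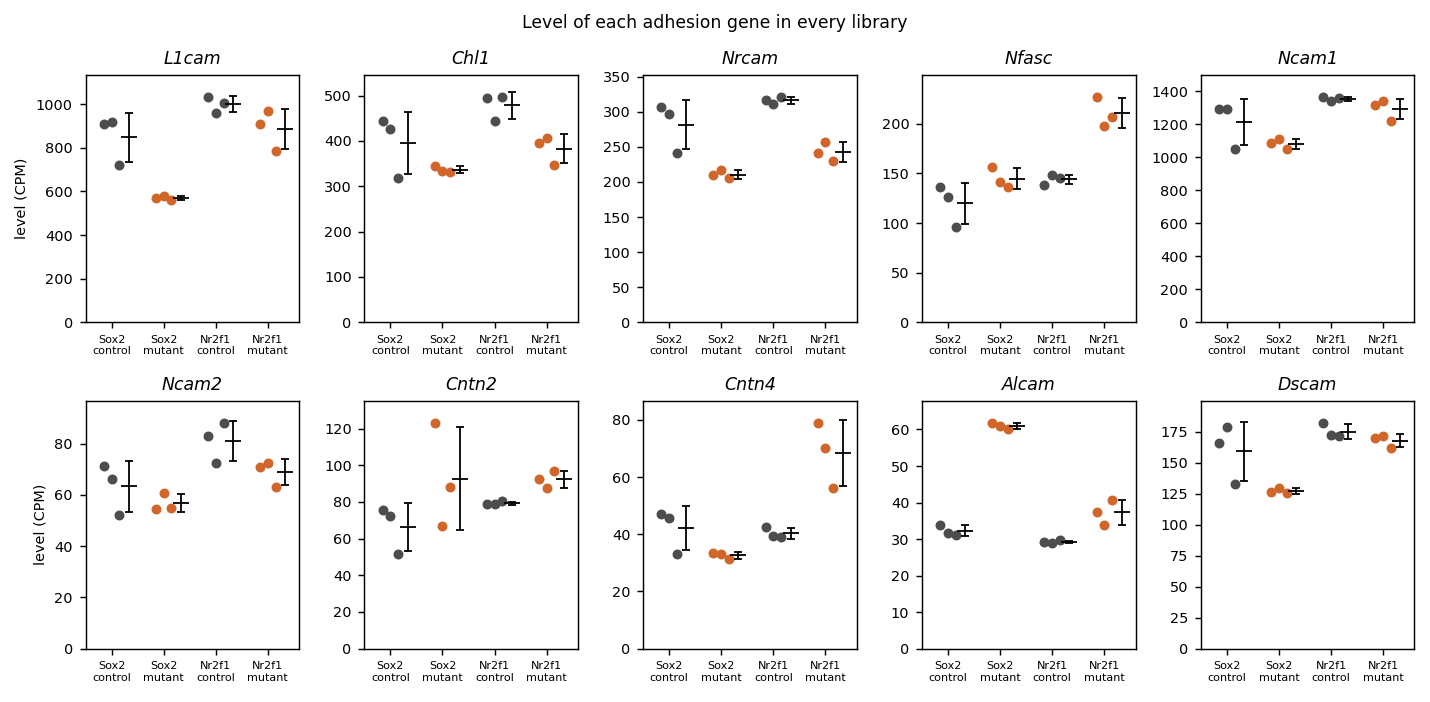
Levels of the 10 adhesion genes in CPM after TMM normalization, 1 point per library with the mean and SD of each group of 3 beside them, for controls and mutants of the *Sox2* and *Nr2f1* lines. *Alcam* was separated from controls in both mutants, the *Nr2f1* mutants were above their controls for *Cntn4*, and the lowest *Sox2* control of every panel is CTRL_3.

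To order the genes by level, CPM were divided by the length of the longest matched RefSeq transcript and averaged over the 6 control libraries. *Ncam1* was highest at 212 CPM per kilobase (173.7 to 225.4 over the 6), and *L1cam* was next at 180.8 CPM per kilobase (140.6 to 202). *Chl1*, at 57.81 CPM per kilobase (41.94 to 65.68), did not overlap with *L1cam*, and *Nrcam* followed at 47.65 CPM per kilobase (38.45 to 51.15). The remaining genes were lower, *Dscam* at 19.12 CPM per kilobase (15.17 to 20.79), *Nfasc* at 13.54 (9.901 to 15.19), *Ncam2* at 11.82 (8.531 to 14.39), *Cntn2* at 10.15 (7.168 to 11.18), *Cntn4* at 7.825 (6.306 to 8.973) and *Alcam* at 5.094 (4.798 to 5.623). The ranges of neighbours across controls overlapped except for *L1cam* and *Chl1*, *Nrcam* and *Dscam*, and *Cntn4* and *Alcam*. Within each of the 6 control libraries, however, the genes stood in this same order. With the mean length of each gene's matched transcripts, *Nfasc* and *Dscam* exchanged places, and so did *Cntn2* and *Cntn4*. The DEG described next came from along this order, with *L1cam* from the top and *Alcam* and *Cntn4* from the bottom.

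**Figure D2:**
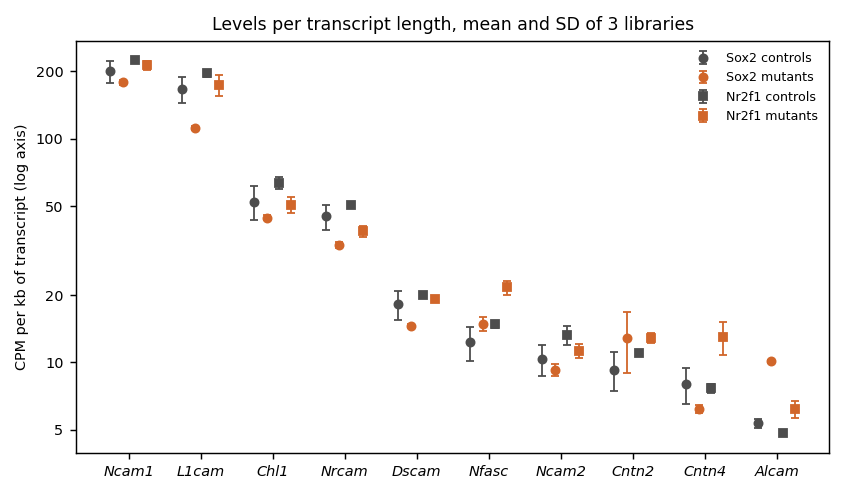
Levels in CPM per kilobase of the longest matched RefSeq transcript, on a log axis, as the mean and SD of the 3 libraries of each group, with genes ordered by their mean over the 6 controls. *Ncam1* leads with 212 CPM per kilobase in controls and *Alcam* comes last with 5.094.

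Of the 10 genes, all of which passed the filter on low counts in both lines, 2 were DEG in *Sox2* mutants, where 8.08% of the 15602 genes tested were called. The higher DEG was *Alcam*, against 3.9% of all genes called higher, and the lower one was *L1cam*, against 4.19% called lower. The median log2 fold change of the 10 was -0.20, beside 0.000497 over all genes, or -0.315 without CTRL_3, beside 0.0149. In *Nr2f1* mutants 3 were DEG, where 2.54% of 15600 genes were called. *Nfasc* and *Cntn4* were higher (1.22% of all genes were), *Nrcam* was lower (1.32% were), and the median log2 fold change was -0.06 beside 0.01 over all genes. No gene of the 10 was a DEG in both lines at these settings, whereas *Alcam* and *Nrcam* were called in both by DESeq2 and in 1 edgeR fit over all 12 libraries, and *Nrcam* also with no filter or with at least 10 counts in every library. The paper, at the same FDR threshold, names *Alcam* among the genes that changed in both mutants. The libraries of mutants and controls did not overlap for 4 of the 10 genes in the *Sox2* line, beside 37.9% of all genes tested, and for 8 of the 10 in the *Nr2f1* line, beside 28.6%. Those 8 include *Ncam1* and *Dscam*, for which MUT_B all but met the controls. Without CTRL_3, 7 of the 10 were called in *Sox2* mutants, *Alcam* higher and *L1cam*, *Chl1*, *Nrcam*, *Ncam1*, *Cntn4* and *Dscam* lower, where 13.7% of all genes were called. Without CTRL_1, CTRL_2, MUT_1, MUT_3 or MUT_4 the count was 1, *Alcam*, and the share of all genes called was 3.51%, 3.12%, 5.58%, 5.75% and 3.15%. In *Nr2f1* mutants the count was 1, *Nfasc*, without CTRL_B, CTRL_D, CTRL_E or MUT_A, where 0.91%, 1.07%, 1.13% and 0.843% of all genes were called. Without MUT_B, the mutant pool lowest in meningeal and GABAergic markers, it was 4, *Alcam*, *Cntn4* and *Nfasc* higher and *Nrcam* lower, beside 5.5% of all genes.

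**Figure D3:**
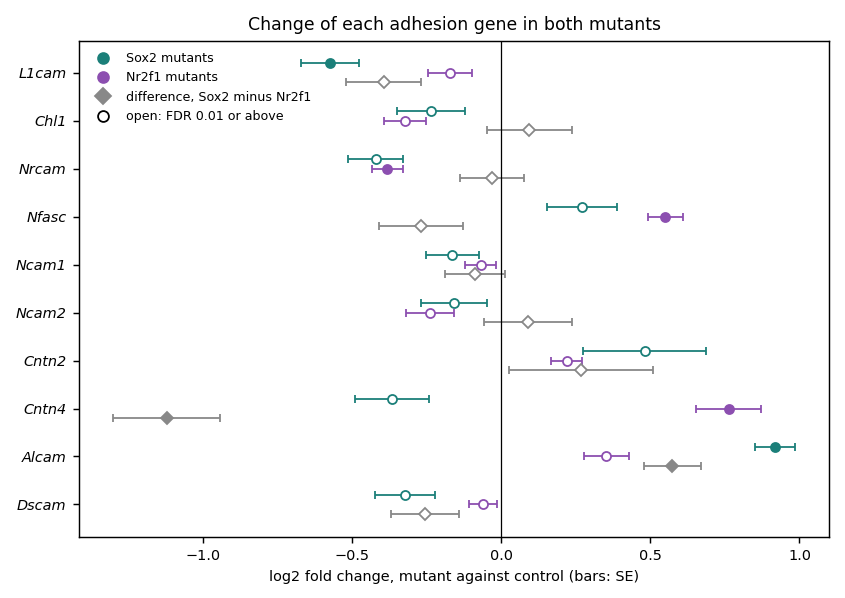
Log2 fold change of the 10 adhesion genes in *Sox2* mutants and in *Nr2f1* mutants, each against its own controls, with the standard error, and the difference between the mutants as diamonds. Filled symbols have an FDR below 0.01, *Alcam* lies at 0.92 in *Sox2* mutants, and *Cntn4* lies at -0.37 in *Sox2* mutants and 0.76 in *Nr2f1* mutants.

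The sequences before the starts of the genes that were DEG are shown because each changed in mutants of a transcription factor gene, and the letters that such factors are known to prefer can then be read directly. Promoter windows, from 250 bases before to 50 bases after a start, were in the RefSeq table of GRCm38.p6 for 9 of the 10 genes (12 windows), and the gene without an entry was *Ncam1*. Each was searched on both strands for ACAAT, the core of the SOX motif, and AGGTCA, the nuclear receptor recognition core, and the matches found did not overlap. ACAAT was found in 31% and AGGTCA in 16.3% of the 32851 windows of the table, and both in 5.27%. Of the 12 windows, 1 held ACAAT and 1 held AGGTCA, and both were windows of *Nfasc*. Capitals mark these matches, at position -103 (ATTGT, the reverse strand of ACAAT) in the upstream window chr1:132707277-132707576, minus strand, and at position -136 in the downstream window chr1:132642809-132643108, minus strand. Both windows lie inside *Nfasc*, at the starts of other transcripts, as does the *Cntn4* window at chr6:106118692-106118991, plus strand. The other windows shown are those of *L1cam* (chrX:73880741-73881040, minus strand), *Nrcam* (chr12:44328635-44328934, plus strand) and *Alcam* (chr16:52453032-52453331, minus strand). *L1cam* and *Cntn4* each have a further window that overlaps the one shown (chrX:73880785-73881084, minus strand, and chr6:106118515-106118814, plus strand), and these are not printed, nor are the windows of the genes that were not DEG. A match describes these letters only, and binding was not measured here. The paper mapped SOX2 binding sites in the dLGN of newborn mice, within and outside promoters, and those sites were not compared with these genes.
Nfasc upstream window: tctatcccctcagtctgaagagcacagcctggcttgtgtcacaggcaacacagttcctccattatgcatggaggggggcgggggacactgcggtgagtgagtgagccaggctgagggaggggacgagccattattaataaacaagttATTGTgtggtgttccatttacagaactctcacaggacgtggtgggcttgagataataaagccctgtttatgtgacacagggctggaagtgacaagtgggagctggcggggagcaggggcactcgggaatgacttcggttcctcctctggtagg
Nfasc downstream window: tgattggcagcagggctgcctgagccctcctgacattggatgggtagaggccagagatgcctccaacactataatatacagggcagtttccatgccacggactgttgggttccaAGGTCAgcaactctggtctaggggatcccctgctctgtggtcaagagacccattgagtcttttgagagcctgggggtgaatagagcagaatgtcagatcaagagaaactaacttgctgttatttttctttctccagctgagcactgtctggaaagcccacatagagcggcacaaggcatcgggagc
Cntn4 window: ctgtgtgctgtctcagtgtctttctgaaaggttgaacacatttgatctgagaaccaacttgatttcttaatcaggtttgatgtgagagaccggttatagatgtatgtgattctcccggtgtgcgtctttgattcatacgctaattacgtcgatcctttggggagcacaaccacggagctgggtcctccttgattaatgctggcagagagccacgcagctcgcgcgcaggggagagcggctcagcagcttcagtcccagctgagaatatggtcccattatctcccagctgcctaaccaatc
Alcam window: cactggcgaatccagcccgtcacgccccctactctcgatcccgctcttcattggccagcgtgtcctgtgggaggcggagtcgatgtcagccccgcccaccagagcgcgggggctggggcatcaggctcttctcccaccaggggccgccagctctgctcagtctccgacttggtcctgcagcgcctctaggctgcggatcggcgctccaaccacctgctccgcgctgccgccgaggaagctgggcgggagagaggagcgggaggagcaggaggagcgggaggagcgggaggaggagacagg
L1cam window: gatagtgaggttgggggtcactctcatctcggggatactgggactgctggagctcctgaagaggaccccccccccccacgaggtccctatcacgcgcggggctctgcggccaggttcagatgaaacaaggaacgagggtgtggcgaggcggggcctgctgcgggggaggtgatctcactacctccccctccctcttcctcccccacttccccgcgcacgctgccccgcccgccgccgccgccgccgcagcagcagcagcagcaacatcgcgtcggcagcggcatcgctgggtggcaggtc
Nrcam window: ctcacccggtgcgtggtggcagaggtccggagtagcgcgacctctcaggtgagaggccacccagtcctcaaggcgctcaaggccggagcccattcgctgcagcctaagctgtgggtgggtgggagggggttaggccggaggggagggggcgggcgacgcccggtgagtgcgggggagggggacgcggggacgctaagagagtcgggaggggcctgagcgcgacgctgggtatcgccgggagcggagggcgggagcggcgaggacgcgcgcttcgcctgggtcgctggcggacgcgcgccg

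*L1cam* encodes the founding member of the L1 family, a homophilic adhesion protein of growing axons. The gene lies on the X chromosome of GRCm38 (chrX:73853778-73880838, minus strand). It stood at 908, 919.7 and 719 CPM in the *Sox2* controls and at 569, 581 and 560.4 CPM in the mutants. The mutants lay close together and below every control, CTRL_3 included. Mutants (570.0 ± 10.2 CPM, n = 3) held 67.2% of the control level (849 ± 113 CPM, n = 3), a log2 fold change of -0.57 (edgeR FDR 0.00352, SE 0.10). Without CTRL_3 the log2 fold change was -0.67 and the call was kept, whereas it was lost without CTRL_1 (-0.52), CTRL_2 (-0.51), MUT_1 (-0.56), MUT_3 (-0.59) or MUT_4 (-0.56). Of the 8 thalamic glutamatergic neuron markers 4 were lower and 2 higher DEG in *Sox2* mutants, and their part in the *L1cam* values was not tested. *L1cam* in the *Nr2f1* line stood at 1033, 961 and 1007 CPM in controls and 908, 967 and 787 CPM in mutants. MUT_B reached into the controls, and the log2 fold change was -0.17 (edgeR FDR 0.19, SE 0.07). A protein-coding gene on the same strand overlaps an *L1cam* exon in GENCODE, and how reads there were divided between the 2 genes cannot be seen in these counts.

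Because *L1cam* is on the X chromosome, the sex of the pooled animals was read from other genes. *Xist*, transcribed from the inactive X of females, stood at 579.1, 0.1894 and 548.9 CPM in the *Sox2* controls and at 0.4627, 307.5 and 293.2 CPM in the mutants. CTRL_2 and MUT_1 thus held almost no *Xist*, and their *L1cam* levels, 919.7 and 569 CPM, lay near that of CTRL_1 (908 CPM) and those of MUT_3 and MUT_4 (581 and 560.4 CPM), while CTRL_3, which held *Xist*, was at 719 CPM. *Xist* in the *Nr2f1* line stood at 484, 383.3 and 0.2827 CPM in controls and 1150, 506.3 and 532.5 CPM in mutants. The 4 male-specific genes, led by *Eif2s3y*, summed to 33.65, 113.7 and 36.09 CPM in *Sox2* controls and 110.2, 67.88 and 54.29 CPM in the mutants. In the *Nr2f1* line they summed to 43.63, 69.12 and 97.35 CPM in controls and 0, 32.5 and 52.05 CPM in mutants. MUT_A alone was at 0, and the mutants of that line had the lower male-specific sum on average. As a covariate, the log2 of this sum in each library, after a constant was added, was put into the fit. *L1cam* then remained a DEG in *Sox2* mutants (log2 fold change -0.61), whereas 0 of the 10 genes were called by edgeR in *Nr2f1* mutants. In that line DESeq2 without the covariate called 5, and the edgeR fit without it had 8 at an unadjusted p below 0.05. Genes called there over the whole table went from 396 to 71.

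*Chl1* encodes the close homologue of L1, also an axonal protein, on chromosome 6 (chr6:103510584-103733038, plus strand). It stood at 444, 426 and 317 CPM in *Sox2* controls and 345, 333 and 330.4 CPM in mutants. CTRL_3 was below every mutant, and the log2 fold change was -0.24 (edgeR FDR 0.172, SE 0.11), or -0.36 without CTRL_3, which passed the threshold. Its levels in the *Nr2f1* line were 495, 444 and 497 CPM in controls and 396, 405 and 346 CPM in mutants. All mutants were below all controls, but the log2 fold change of -0.32 (edgeR FDR 0.0263, SE 0.07) missed the threshold, while DESeq2 called it.

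*Nrcam* encodes a neuronal L1 family protein that also gathers at the nodes of axons and binds neuropilins (chr12:44328786-44605194, plus strand). For the *Nr2f1* line the values were 316, 311 and 321 CPM in controls and 241, 258 and 229.9 CPM in mutants. Controls lay within a narrow band and every mutant was below it. Mutants (243 ± 13.9 CPM, n = 3) held 76.7% of the control level (316 ± 4.77 CPM, n = 3), with a log2 fold change of -0.38 (edgeR FDR 0.00298, SE 0.05). The call was lost without CTRL_B (-0.38), CTRL_D (-0.39), CTRL_E (-0.37) or MUT_A (-0.38) and with the covariate for male-specific genes (-0.38). In the *Sox2* line it stood at 307, 297 and 241 CPM in controls and 209, 217 and 205 CPM in mutants. The mutants were again below every control, yet the log2 fold change of -0.42 (edgeR FDR 0.0124, SE 0.09) missed the threshold, which it passed without CTRL_3 (-0.51) and by DESeq2 (-0.42). The *Sox2* minus the *Nr2f1* log2 fold change of *Nrcam* was -0.03 (edgeR FDR 0.937, SE 0.11) and was not called. It was -0.13 without CTRL_3, and above 0 without CTRL_1 (0.034), CTRL_2 (0.016) or *Nr2f1* MUT_B (0.027).

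*Nfasc* encodes neurofascin, which anchors the axon initial segment and node through ankyrin (chr1:132564690-132741848, minus strand). Levels in the *Nr2f1* line were 139, 148 and 145 CPM in controls and 227, 198 and 207 CPM in mutants. Every mutant was well above the controls, which differed little from each other. Mutants (211 ± 14.8 CPM, n = 3) had 146% of the control level (144 ± 4.85 CPM, n = 3), and *Nfasc* rose by a log2 fold change of 0.55 (edgeR FDR 0.000777, SE 0.06). No library decided this call, which was lost only with the covariate for male-specific genes (0.48) among the 15 alternatives. In the *Sox2* line *Nfasc* stood at 137, 126 and 96.4 CPM in controls and 157, 141 and 136 CPM in mutants. Controls and mutants overlapped through CTRL_1 and MUT_4, the log2 fold change was 0.27 (edgeR FDR 0.132, SE 0.12), or 0.15 without CTRL_3, and the test of the difference between the mutants gave -0.27 (edgeR FDR 0.379, SE 0.14). Of the 4 L1 family genes, *Nfasc* was thus a higher and *Nrcam* a lower DEG in *Nr2f1* mutants. Both calls were kept under each of the scaling alternatives tried. Among the 4, *Nfasc* alone was called without CTRL_B, CTRL_D, CTRL_E or MUT_A, and 0 were called with the covariate for male-specific genes.

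The NCAM genes encode the neural cell adhesion molecule and its relative, carriers of polysialic acid in the case of *Ncam1* (chr9:49502129-49799393, minus strand) and an olfactory and axonal protein in the case of *Ncam2* (chr16:81200697-81624290, plus strand). *Ncam1* stood at 1292, 1292 and 1051 CPM in *Sox2* controls and 1088, 1108 and 1049 CPM in mutants. CTRL_3 lay between the mutants, and the log2 fold change was -0.16 (edgeR FDR 0.222, SE 0.09), or -0.25 without CTRL_3, which passed the threshold. Its levels in the *Nr2f1* line were 1363, 1338 and 1358 CPM in controls and 1312, 1338 and 1221 CPM in mutants. MUT_B all but met CTRL_D, and the log2 fold change was -0.07 (edgeR FDR 0.455, SE 0.05). *Ncam2* stood at 71.3, 66.3 and 52.1 CPM in *Sox2* controls and 54.4, 60.8 and 55.0 CPM in mutants. CTRL_3 was the lowest of the 6, and the log2 fold change was -0.16 (edgeR FDR 0.346, SE 0.11), or -0.27 without CTRL_3. *Ncam2* in the *Nr2f1* line stood at 83.0, 72.5 and 87.9 CPM in controls and 70.7, 72.6 and 63.0 CPM in mutants. These groups met at CTRL_D and MUT_B, and the log2 fold change was -0.24 (edgeR FDR 0.108, SE 0.08). Thus edgeR called 0 of the 2 NCAM genes in either line, where 0 (*Sox2* line) and 1 (*Nr2f1* line) had an unadjusted p below 0.05 and DESeq2 called 0 in each. An antisense gene overlaps an *Ncam1* exon in GENCODE, and since the strand counted is not stated, whether its reads were counted as *Ncam1* cannot be told.

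*Cntn2* encodes contactin 2 (TAG-1), a protein of early axons (chr1:132509425-132543251, minus strand), and lies 21.44 kb from *Nfasc* on the same strand. In the *Sox2* line it stood at 75.6, 72.2 and 51.4 CPM in controls and 123, 66.9 and 88.3 CPM in mutants. MUT_1 was far above the rest and MUT_3 lay among the controls, so the groups overlapped and the log2 fold change of 0.48 (edgeR FDR 0.129, SE 0.21) did not pass, nor did 0.34 without CTRL_3, whereas it passed with a replicate block (0.54). The markers of pallial and hippocampal neurons ranked the libraries of each group in the same order, with sums of 46.11, 34.96 and 22.93 CPM in controls and 129.9, 39.18 and 75.33 CPM in mutants, 1 DEG of 6 and none at 0 in all libraries, and *Neurod2* as the most abundant. Their part in the *Cntn2* values was not tested. *Cntn2* in the *Nr2f1* line stood at 78.8, 78.6 and 80.3 CPM in controls and 92.3, 87.6 and 97.0 CPM in mutants. Every mutant was above every control by more than the controls differed, but the log2 fold change of 0.22 (edgeR FDR 0.0350, SE 0.05) missed the threshold.

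*Cntn4* encodes contactin 4, which is known in the visual system for guiding retinal axons to a nucleus of the accessory optic system with APP as a partner (chr6:105677632-106700141, plus strand). For the *Nr2f1* line the values were 42.4, 39.4 and 39.1 CPM in controls and 78.8, 70.3 and 56.2 CPM in mutants. Mutants differed more from each other than controls did, with MUT_A highest and MUT_C lowest, and all lay above the controls. They averaged 68.4 ± 11.4 CPM (n = 3) against 40.3 ± 1.84 CPM (n = 3), 169.7% of the control level. *Cntn4* rose by a log2 fold change of 0.76 (edgeR FDR 0.00346, SE 0.11). It was no longer called without CTRL_B (0.80), CTRL_D (0.75), CTRL_E (0.74) or MUT_A (0.65) and with the covariate for male-specific genes (0.59). In the *Sox2* line it stood at 47.2, 45.7 and 33.2 CPM in controls and 33.5, 33.1 and 31.2 CPM in mutants. CTRL_3 lay with the mutants, and the other two controls were higher than all the mutants. The log2 fold change there was -0.37 (edgeR FDR 0.0644, SE 0.12), or -0.50 without CTRL_3, which passed the threshold. No annotated gene overlaps *Cntn4*, *Cntn2* or *Alcam*.

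*Alcam* encodes the activated leukocyte cell adhesion molecule, which is known for roles in the bundling and mapping of retinal axons and binds itself and L1CAM (chr16:52248996-52453081, minus strand). In the *Sox2* line it stood at 33.9, 31.6 and 31.2 CPM in controls and 61.7, 61.1 and 60.2 CPM in mutants. Both groups were tight, and a wide gap separated them. Mutants (61.0 ± 0.758 CPM, n = 3) had 189% of the control level (32.3 ± 1.48 CPM, n = 3), a log2 fold change of 0.92 (edgeR FDR 4.84e-05, SE 0.07). *Alcam* was the gene least affected by CTRL_3, and it was called in all 16 alternatives, with log2 fold changes from 0.90 to 0.96, and 0.91 without CTRL_3. Levels in the *Nr2f1* line were 29.1, 29.0 and 29.6 CPM in controls and 37.5, 33.8 and 40.6 CPM in mutants. All mutants were above all controls, but the log2 fold change of 0.35 (edgeR FDR 0.0235, SE 0.08) missed the threshold, which it passed by DESeq2 (0.34) and without MUT_B (0.42), the lowest mutant pool for *Alcam* and for meningeal and GABAergic markers, whose part in this value was not tested. Astrocyte and microglial markers were also higher in the *Sox2* mutants than in their controls (5 of 7 and 6 of 7 as DEG, with the sums in each library given above and none at 0 in all libraries), as were all 9 GABAergic markers, and the part of these cells in the *Alcam* values was not tested.

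*Dscam* encodes a homophilic adhesion protein known for the spacing of retinal neurons (chr16:96587452-97171113, minus strand). It stood at 166, 179 and 133 CPM in *Sox2* controls and 127, 129.8 and 125 CPM in mutants. All the mutants lay below all the controls, CTRL_3 only just above them, and the log2 fold change of -0.32 (edgeR FDR 0.0482, SE 0.10) missed the threshold, which it passed without CTRL_3 (-0.43). Its levels in the *Nr2f1* line were 182, 172 and 172 CPM in controls and 170.0, 172 and 162 CPM in mutants. MUT_B all but met the controls, and the log2 fold change was -0.06 (edgeR FDR 0.479, SE 0.05). Genes on the opposite strand overlap *Dscam* exons in GENCODE, and whether their reads were counted as *Dscam* cannot be told because the strand counted is not stated.

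Whether the 2 deletions changed a gene differently was asked of all 12 libraries at once, through an interaction term for line and genotype, in which 231 of 15989 genes were called (1.44%). The difference subtracts the *Nr2f1* log2 fold change from the *Sox2* one. *Cntn4* was lower in this contrast, beside 1.11% of all genes, with a difference of -1.12 (edgeR FDR 0.00290, SE 0.18), or -1.26 without *Sox2* CTRL_3. It was higher in all the *Nr2f1* mutants than in their controls and lower in all the *Sox2* mutants than in CTRL_1 and CTRL_2. This call was lost without *Sox2* CTRL_2 (-1.05) or MUT_4 (-1.08), or *Nr2f1* CTRL_D (-1.10), CTRL_E (-1.09) or MUT_A (-1.005). *Alcam* was higher, beside 0.331% of all genes, with a difference of 0.57 (edgeR FDR 0.00395, SE 0.10), or 0.55 without *Sox2* CTRL_3. Its direction was the same in both lines, and its size was larger in *Sox2* mutants. That call was lost without *Sox2* CTRL_2 (0.57), MUT_1 (0.57) or MUT_4 (0.59), or *Nr2f1* CTRL_D (0.59), CTRL_E (0.57) or MUT_A (0.58). The other 8 genes did not pass, among them *L1cam* (-0.39, edgeR FDR 0.117, SE 0.13, or -0.50 without *Sox2* CTRL_3) and *Dscam* (-0.25, edgeR FDR 0.293, SE 0.11), and the latter passed without *Sox2* CTRL_3 (-0.37). The median difference of the 10 was -0.06, beside -0.01 over all genes, or -0.151 without CTRL_3, beside 0.00261. Without any other library it ran from -0.0896 (*Nr2f1* MUT_C) to -0.00367 (*Sox2* CTRL_1), with -0.00697 without *Sox2* CTRL_2 and -0.0106 without *Nr2f1* MUT_B. The levels of the controls of the 2 lines were also compared, as ratios only. CPM were scaled within each line, and no test was run between these controls. The mean CPM of the *Nr2f1* controls was 0.906 of that of the *Sox2* controls for *Alcam* and 0.959 for *Cntn4*, and between 1.1 (*Dscam*) and 1.28 (*Ncam2*) for the other 8 genes. Without CTRL_3, a comparison chosen after seeing the data, it was 0.892 for *Alcam*, 0.868 for *Cntn4*, and between 1.02 (*Dscam*) and 1.18 (*Ncam2*) for the other 8, with 1.05 for *Ncam1* and *Nrcam*.

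**Figure D4:**
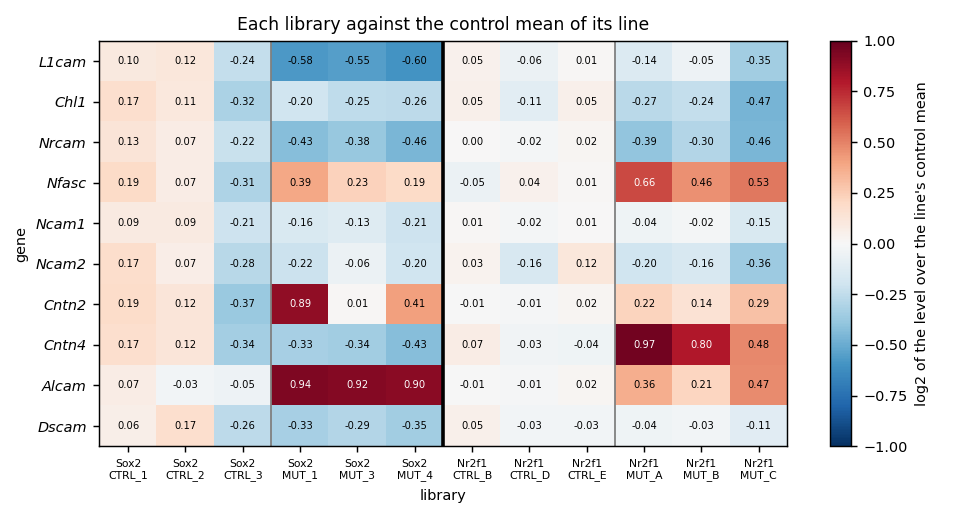
Log2 of each library's CPM over the mean of the controls of its line, for the 10 adhesion genes in all 12 libraries. *Alcam* is high in the 3 *Sox2* mutants, *Cntn4* and *Nfasc* are high in the 3 *Nr2f1* mutants, and CTRL_3 is below the control mean for all 10 genes.

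The closest relatives outside the 10 genes were examined next. They are 4 more contactins and 3 genes related to *Dscam* or *Alcam*. The counts of this and the following lists stand beside 3.9% higher and 4.19% lower DEG among all genes tested in *Sox2* mutants, and 1.22% and 1.32% in *Nr2f1* mutants, and those without CTRL_3 stand beside 13.7% of all genes called in either direction. Astrocyte, microglial and GABAergic markers were higher in the same *Sox2* mutants, as given above. Of the 8 thalamic glutamatergic neuron markers 4 were lower and 2 higher DEG there, and *Syt1* was lower as well. The part of all these cells in the counts was not tested. In *Sox2* mutants edgeR called 0 of the 7 (4 at an unadjusted p below 0.05, 3 by DESeq2), with a median log2 fold change of 0.12, whereas without CTRL_3 it called 1 higher and 2 lower, with a median of -0.083. In *Nr2f1* mutants it called 0 as well (4 and 1), with a median of 0.21, and 1 higher without MUT_B. *Cntn5*, a contactin of auditory pathways, stood at 28.1, 27.1 and 17.6 CPM in *Sox2* controls and 12.6, 13.9 and 16.2 CPM in mutants. All the mutants lay below CTRL_3, the lowest control, and the log2 fold change of -0.77 (edgeR FDR 0.0135, SE 0.17) missed the threshold, which it passed without CTRL_3 (-0.95). *Cntn5* also passed without a filter, by DESeq2, in 1 fit over all 12 libraries and with a replicate block. *Dscaml1*, the paralogue of *Dscam*, stood at 15.4, 15.9 and 12.2 CPM in *Sox2* controls and 29.6, 18.9 and 21.8 CPM in mutants. Here the mutants were higher, MUT_1 most of all, with a log2 fold change of 0.69 (edgeR FDR 0.0191, SE 0.17), or 0.59 without CTRL_3. *Dscaml1* missed the threshold in both fits but passed without a filter, by DESeq2 and with a replicate block. *Bcam*, a laminin receptor related to *Alcam*, had log2 fold changes of 0.48 (edgeR FDR 0.0376, SE 0.14) in *Sox2* mutants and 0.70 (edgeR FDR 0.0419, SE 0.18) in *Nr2f1* mutants. It passed without *Sox2* CTRL_3 (0.66) and without *Nr2f1* MUT_B (0.86). At 18.0, 13.5 and 21.2 CPM the *Nr2f1* mutants ranked for *Bcam* as they did for meningeal and GABAergic markers, whose part was not tested. *Cntn1*, encoding the contactin that pairs with CNTNAP1 at nodes, stood at 308, 299 and 229.7 CPM in *Sox2* controls and 235, 232 and 229 CPM in mutants, where CTRL_3 lay with the mutants and the log2 fold change was -0.27 (edgeR FDR 0.101, SE 0.10), or -0.38 without CTRL_3, which passed. *Nr2f1* mutants had log2 fold changes of -0.28 for *Cntn5* (edgeR FDR 0.225, SE 0.13), 0.21 for *Dscaml1* (edgeR FDR 0.438, SE 0.15) and -0.16 for *Cntn1* (edgeR FDR 0.155, SE 0.06).

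The contactin-associated proteins span the membrane and join contactins on the same cell. Of 7, *Sox2* mutants had 1 higher and 1 lower DEG (median log2 fold change 0.23), or 1 and 2 without CTRL_3 (median 0.041) and 1 and 0 without any other library. *Nr2f1* mutants had 1 lower DEG (median 0.17), or 0 without CTRL_B, CTRL_E or MUT_A. That median was 0.0168 without CTRL_B, 0.0766 without CTRL_E and -0.21 without MUT_A. *Cntnap5b* stood at 10.99, 10.4 and 8.32 CPM in *Sox2* controls and 21.5, 17.4 and 21.3 CPM in mutants. All mutants were far above the controls, and it rose by a log2 fold change of 1.02 (edgeR FDR 0.000910, SE 0.13), or 0.92 without CTRL_3. *Cntnap2*, a partner of *Cntn2* at axons, stood at 199.6, 178 and 126 CPM in *Sox2* controls and 102, 107 and 99.2 CPM in mutants. All mutants were below CTRL_3, the lowest control, and it fell with a log2 fold change of -0.71 (edgeR FDR 0.00769, SE 0.14). The call was lost without CTRL_1 (-0.57), CTRL_2 (-0.67), MUT_1 (-0.69), MUT_3 (-0.74) or MUT_4 (-0.69) and with the covariate for male-specific genes (-0.73), and kept without CTRL_3 (-0.87). *Nr2f1* mutants also lay on the same side of their controls without overlap, with log2 fold changes of 0.50 for *Cntnap5b* (edgeR FDR 0.0701, SE 0.15) and -0.23 for *Cntnap2* (edgeR FDR 0.0283, SE 0.05), of which the latter passed by DESeq2 (-0.24). *Cntnap5a* stood at 29.0, 22.0 and 25.3 CPM in *Nr2f1* controls and 11.7, 14.9 and 10.9 CPM in mutants. Mutants had 49.3% of the control level and did not overlap with controls (log2 fold change -1.02, edgeR FDR 0.00251, SE 0.14), a call lost without CTRL_B (-0.92), CTRL_E (-1.02) or MUT_A (-0.98) and with the covariate for male-specific genes (-0.998). In *Sox2* mutants its log2 fold change was -0.52 (edgeR FDR 0.0216, SE 0.13), which passed without CTRL_3 (-0.64). *Cntnap5c* was near 1 CPM in every library, from 0.631 to 1.31, and was not a DEG in either line.

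Inside the membrane, L1 family proteins meet ankyrins, spectrins and ERM proteins. The 11 genes listed are of these kinds apart from *Dcx*, which encodes doublecortin, a microtubule protein, and was not a DEG in either line. Of the 11, *Sox2* mutants had 1 higher and 2 lower DEG (median log2 fold change -0.26), or 2 and 5 without CTRL_3 (median -0.25). They were 0 and 1 without CTRL_1, CTRL_2 or MUT_4, and 1 and 1 without MUT_1 or MUT_3. In *Nr2f1* mutants edgeR called 0 (5 at an unadjusted p below 0.05, 1 by DESeq2, median -0.08). *Ank3*, encoding ankyrin G, to which neurofascin and NRCAM bind at the initial segment, stood at 399.7, 384 and 356 CPM in *Sox2* controls and 266, 267 and 239 CPM in mutants. A clear gap separated the groups, and *Ank3* fell with a log2 fold change of -0.56 (edgeR FDR 0.00111, SE 0.08) and was called in all 16 alternatives. *Sptan1*, encoding alpha II spectrin, stood at 1607, 1614 and 1429.6 CPM in *Sox2* controls and 1226, 1179 and 1201 CPM in mutants. All mutants were below all controls (log2 fold change -0.37, edgeR FDR 0.00774, SE 0.07). It was no longer called without CTRL_1 (-0.34), CTRL_2 (-0.34), MUT_1 (-0.37), MUT_3 (-0.35) or MUT_4 (-0.37). It was also lost with upper quartile normalization (-0.32), with legacy=FALSE (-0.37), with the covariate for male-specific genes (-0.39) and with a replicate block (-0.33). *Ezr*, encoding ezrin, stood at 7.71, 6.11 and 7.38 CPM in *Sox2* controls and 13.9, 11.6 and 19.2 CPM in mutants. MUT_4 was the highest and all mutants were above the controls, with a log2 fold change of 1.07 (edgeR FDR 0.00394, SE 0.18) that was not called without CTRL_1 (1.14), CTRL_2 (0.98) or MUT_4 (0.85). Without CTRL_3 the log2 fold change was -0.60 for *Ank3*, -0.41 for *Sptan1* and 1.12 for *Ezr*. *Nr2f1* mutants had log2 fold changes of the same sign that missed the threshold, -0.15 for *Ank3* (edgeR FDR 0.148, SE 0.06), -0.20 for *Sptan1* (edgeR FDR 0.0475, SE 0.05), which passed by DESeq2 (-0.21), and 0.29 for *Ezr* (edgeR FDR 0.229, SE 0.14).

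Of 15 ligands and co-receptors, 13 were tested in each line. In *Sox2* mutants 6 were higher and 1 was lower (median log2 fold change 0.29), beside 3.9% and 4.19% of all genes, and without CTRL_3 the numbers were 6 and 2 of 14 (median 0.41). They were 3 and 0 without CTRL_2, 3 and 1 without MUT_4, 4 and 1 without CTRL_1 or MUT_3, and 5 and 1 without MUT_1. The same mutants had higher astrocyte (5 of 7 as DEG) and microglial markers (6 of 7), and all 9 GABAergic markers without overlap, with the sums in each library given above, and the part of these cells in the 6 was not tested. In *Nr2f1* mutants 1 was higher and 1 was lower (median 0.10), beside 1.22% and 1.32%, or 1 and 0 without CTRL_B, CTRL_D, CTRL_E or MUT_A, and 2 and 1 without MUT_B or MUT_C. *Nrp1*, a semaphorin co-receptor that L1CAM and CHL1 bind, stood at 56.8, 52.8 and 59.1 CPM in *Sox2* controls and 89.5, 80.4 and 79.4 CPM in mutants. For the *Nr2f1* line the values were 49.2, 47.5 and 46.5 CPM in controls and 86.9, 70.8 and 85.4 CPM in mutants. All the mutants of both lines were above all their controls, and the log2 fold changes were 0.56 (edgeR FDR 0.00107, SE 0.08) in *Sox2* mutants and 0.76 (edgeR FDR 0.000673, SE 0.08) in *Nr2f1* mutants. MUT_B was the lowest *Nr2f1* mutant for *Nrp1* and for the sum of endothelial markers. That sum was 203, 247.5 and 217.8 CPM in controls and 326.8, 242.7 and 349.2 CPM in mutants, and the part of such cells was not tested. *Nrp2*, the co-receptor that NRCAM binds, stood at 44.9, 41.1 and 43.1 CPM in *Sox2* controls and 67.9, 71.8 and 62.9 CPM in mutants. The groups were well apart, with a log2 fold change of 0.65 (edgeR FDR 0.000462, SE 0.07). In the *Nr2f1* line MUT_B, at 38.6 CPM, lay among the controls, and the log2 fold change was 0.54 (edgeR FDR 0.128, SE 0.19), or 0.75 without MUT_B, which passed. The mutants, at 58.2, 38.6 and 75.4 CPM, ranked as in their meningeal (1896, 1002 and 2330 CPM) and GABAergic sums (179.5, 114.2 and 237.8 CPM), so leaving out MUT_B removes the pool lowest in all of these, and the part of such tissue was not tested. The *Nrp1* call in *Nr2f1* mutants was lost with the covariate for male-specific genes (0.70), and the *Nrp2* call in *Sox2* mutants was lost in 1 fit over all 12 libraries (0.66). Without CTRL_3 the log2 fold change in *Sox2* mutants was 0.61 for *Nrp1* and 0.66 for *Nrp2*.

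*App*, encoding a partner of contactin 4, stood at 1927, 1945 and 2158 CPM in *Nr2f1* controls and 1365, 1517 and 1264 CPM in mutants. All mutants were below all controls, so *App* fell where *Cntn4* rose, with a log2 fold change of -0.54 (edgeR FDR 0.00303, SE 0.07). The call was lost without CTRL_B (-0.57), CTRL_D (-0.56), CTRL_E (-0.49) or MUT_A (-0.53), in 1 fit over all 12 libraries (-0.54) and with the covariate for male-specific genes (-0.53). In *Sox2* mutants the log2 fold change of *App* was -0.52 (edgeR FDR 0.0182, SE 0.12), which passed without CTRL_3 (-0.63). *Fgfr1*, a receptor that L1 and NCAM proteins engage, stood at 59.2, 59.0 and 62.0 CPM in *Sox2* controls and 80.4, 81.0 and 89.2 CPM in mutants. Controls and mutants were each tight and apart, and the log2 fold change was 0.48 (edgeR FDR 0.00157, SE 0.07). It was not called without CTRL_2 (0.46) or MUT_4 (0.43), and it was 0.51 without CTRL_3. In *Nr2f1* mutants it was 0.20 (edgeR FDR 0.263, SE 0.10). *Gfra1*, encoding the GDNF receptor that works with NCAM, is named here after its values were seen, as the lower DEG of this list in *Sox2* mutants. It stood at 49.4, 45.3 and 36.0 CPM in *Sox2* controls and 22.8, 22.3 and 27.0 CPM in mutants. Levels in the *Nr2f1* line were 52.0, 53.5 and 46.1 CPM in controls and 78.5, 70.3 and 60.4 CPM in mutants. All the mutants were below their controls in the *Sox2* line and above them in the *Nr2f1* line. It fell in *Sox2* mutants (log2 fold change -0.86, edgeR FDR 0.00167, SE 0.12), a call lost without CTRL_2 (-0.83) and kept without CTRL_3 (-0.96), and had a log2 fold change of 0.46 (edgeR FDR 0.0205, SE 0.10) in *Nr2f1* mutants, which passed without MUT_C (0.55). The difference was -1.31 (edgeR FDR 0.000560, SE 0.17) and was called in all 19 alternatives.

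Polysialyltransferases and sheddases modify or cleave these adhesion proteins. Of 5, *Sox2* mutants had 1 lower DEG (median log2 fold change -0.01), or 1 higher and 2 lower without CTRL_3 (median -0.0079) and 0 without any other library, and in *Nr2f1* mutants edgeR called 0 (0 at an unadjusted p below 0.05, 0 by DESeq2, median -0.01). The DEG was *St8sia2*, which adds polysialic acid to NCAM and stood at 729, 692 and 540.3 CPM in *Sox2* controls and 423, 457 and 393 CPM in mutants. Every mutant was below every control (log2 fold change -0.62, edgeR FDR 0.00501, SE 0.11). It was no longer called without CTRL_1 (-0.54), CTRL_2 (-0.58), MUT_1 (-0.61), MUT_3 (-0.68) or MUT_4 (-0.57) and kept without CTRL_3 (-0.73). Its log2 fold change in *Nr2f1* mutants was -0.20 (edgeR FDR 0.207, SE 0.09). *St8sia4*, the other enzyme of this kind, stood at 26.9, 21.8 and 20.7 CPM in *Sox2* controls and 27.4, 21.4 and 27.7 CPM in mutants. The groups overlapped, with a log2 fold change of 0.14 (edgeR FDR 0.481, SE 0.13), or 0.08 without CTRL_3. The sheddases *Adam17* (0.47, edgeR FDR 0.0195, SE 0.11) and *Bace1* (-0.22, edgeR FDR 0.134, SE 0.10) lay on opposite sides of 0 in *Sox2* mutants, and both passed without CTRL_3, at 0.57 and -0.32.

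Of 18 other immunoglobulin adhesion genes, from the IgLON, CADM, nectin, sidekick and KIRREL groups and *Thy1*, 3 were higher and 6 were lower DEG in *Sox2* mutants (median log2 fold change -0.19), or 3 and 7 without CTRL_3 (median -0.255). The lower ones were 1 without CTRL_1, CTRL_2 or MUT_4, 2 without MUT_3 and 5 without MUT_1, with 3 higher each time. In *Nr2f1* mutants 2 were higher and 2 were lower (median -0.19), or 0 and 0 without CTRL_B or CTRL_E, 1 and 0 without CTRL_D, MUT_A or MUT_C, and 4 and 4 without MUT_B. *Kirrel3*, a homophilic protein of sensory axons and synapses, stood at 47.8, 48.3 and 35.6 CPM in *Sox2* controls and 120.3, 107 and 119 CPM in mutants. Its levels in the *Nr2f1* line were 34.4, 42.6 and 38.4 CPM in controls and 56.4, 62.5 and 70.3 CPM in mutants. It was higher in every mutant of both lines, with log2 fold changes of 1.39 (edgeR FDR 9.03e-05, SE 0.11) and 0.71 (edgeR FDR 0.00298, SE 0.10), and the latter call was lost without CTRL_B (0.64) or CTRL_E (0.71). *Kirrel* stood at 17.2, 19.1 and 20.1 CPM in *Sox2* controls and 29.1, 33.5 and 32.4 CPM in mutants. It rose in these mutants without overlap (log2 fold change 0.75, edgeR FDR 0.000676, SE 0.09), and in *Nr2f1* mutants, at 0.51 (edgeR FDR 0.0909, SE 0.16), it passed without MUT_B (0.69). The *Nr2f1* mutants, at 24.4, 17.4 and 29.4 CPM of *Kirrel*, again ranked as for meningeal and GABAergic markers, whose part was not tested. *Ntm*, the IgLON gene neurotrimin, stood at 359.6, 371 and 328 CPM in *Sox2* controls and 198, 238 and 197 CPM in mutants. All the mutants were far below the controls, and it fell with a log2 fold change of -0.74 (edgeR FDR 0.000633, SE 0.09). In *Nr2f1* mutants the log2 fold change of *Ntm* was -0.30 (edgeR FDR 0.0360, SE 0.07), and it passed without MUT_B (-0.37), the mutant nearest to the controls. Without CTRL_3 the log2 fold change in *Sox2* mutants was 1.27 for *Kirrel3*, 0.81 for *Kirrel* and -0.78 for *Ntm*. *Sdk2*, a homophilic protein of retinal synapses, stood at 10.99, 10.6 and 10.7 CPM in *Nr2f1* controls and 24.4, 16.4 and 20.3 CPM in mutants. Controls were almost equal and all mutants were above them (log2 fold change 0.92, edgeR FDR 0.00367, SE 0.13). The call was lost without CTRL_B (0.93), CTRL_D (0.91), CTRL_E (0.92), MUT_A (0.77) or MUT_C (0.92) and with the covariate for male-specific genes (0.74). *Sdk2* in *Sox2* mutants had a log2 fold change of 0.40 (edgeR FDR 0.0508, SE 0.12), or 0.30 without CTRL_3, with every mutant above every control.

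*Sdk1*, *Cadm2* and *Nectin3* are named after their values were seen, because each is among 3 or fewer DEG of its direction in this list in *Sox2* or *Nr2f1* mutants. The other lower DEG of the list in *Sox2* mutants are given by count. *Sdk1*, the paralogue of *Sdk2*, stood at 20.3, 19.4 and 16.7 CPM in *Sox2* controls and 29.7, 34.4 and 28.6 CPM in mutants. All mutants were above all controls, and it rose by a log2 fold change of 0.72 (edgeR FDR 0.00180, SE 0.11), or 0.65 without CTRL_3. The *Nr2f1* controls were at 20.6, 21.9 and 18.8 CPM and the mutants at 29.2, 21.6 and 33.7 CPM, overlapping through MUT_B, with a log2 fold change of 0.47 (edgeR FDR 0.0795, SE 0.14) that passed by DESeq2 (0.45) and without MUT_B (0.62). *Cadm2*, a synaptic adhesion gene, stood at 169.7, 169 and 205 CPM in *Nr2f1* controls and 137, 123 and 121 CPM in mutants. The mutants lay below every control (log2 fold change -0.51, edgeR FDR 0.00600, SE 0.08). It was no longer called without CTRL_B (-0.56), CTRL_D (-0.56), CTRL_E (-0.42), MUT_A (-0.57) or MUT_C (-0.48), in 1 fit over all 12 libraries (-0.51) and with the covariate for male-specific genes (-0.57). *Cadm2* stood in the *Sox2* line at 189, 186 and 133 CPM in controls and 106, 126 and 115 CPM in mutants. These mutants too were below every control, and the log2 fold change of -0.55 (edgeR FDR 0.0149, SE 0.13) missed the threshold, which it passed without CTRL_3 (-0.69), by DESeq2 (-0.55), without a filter (-0.55), in 1 fit over all 12 libraries (-0.54) and with a replicate block (-0.46). *Nectin3* stood at 29.7, 31.4 and 30.0 CPM in *Nr2f1* controls and 19.7, 22.7 and 22.8 CPM in mutants. In the *Sox2* line it stood at 32.6, 32.5 and 31.7 CPM in controls and 25.0, 23.3 and 22.6 CPM in mutants. In both lines every mutant was below every control, with log2 fold changes of -0.48 (edgeR FDR 0.00578, SE 0.08) in *Nr2f1* and -0.45 (edgeR FDR 0.00375, SE 0.08) in *Sox2* mutants. The *Nr2f1* call was lost without CTRL_B (-0.50), CTRL_D (-0.46), CTRL_E (-0.49), MUT_A (-0.42) or MUT_C (-0.52) and with the covariate for male-specific genes (-0.40). The *Sox2* call was lost without CTRL_1 (-0.45), CTRL_2 (-0.45), MUT_3 (-0.44) or MUT_4 (-0.42) and with a replicate block (-0.42), while it was kept without CTRL_3 (-0.45).

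**Figure D5:**
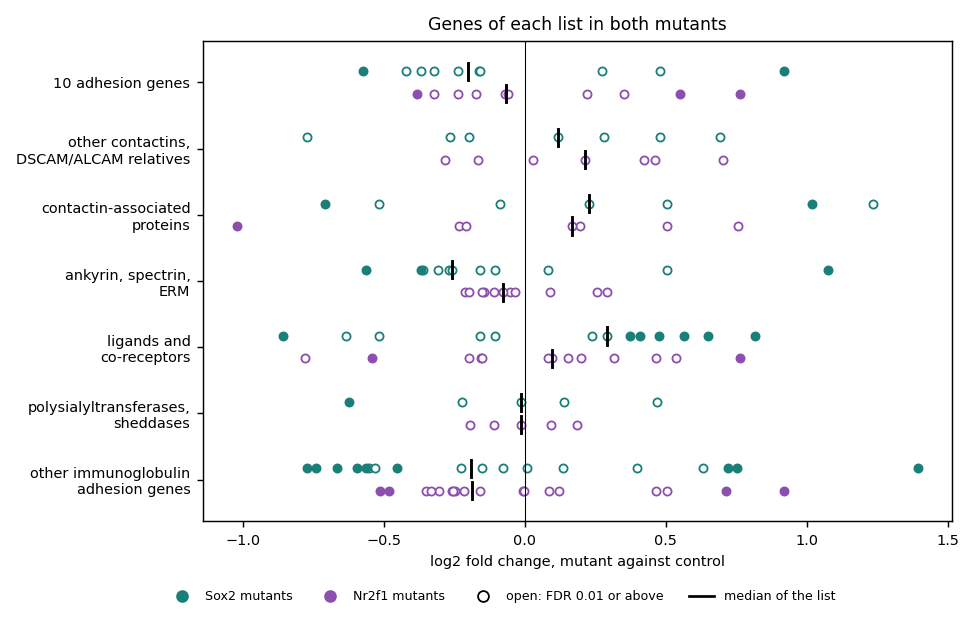
Log2 fold change of each tested gene in the 10 adhesion genes and in the lists of relatives, partners and other immunoglobulin adhesion genes, for *Sox2* and *Nr2f1* mutants, with DEG marked. The ligands and co-receptors hold 6 higher DEG in *Sox2* mutants, and the relatives hold 0 in either line by edgeR (4 at an unadjusted p below 0.05 in each, and 3 and 1 by DESeq2).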

How the data were processed

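RNA from the dLGN was sequenced after library preparation with the Nugen Universal+mRNA-seq kit. The authors aligned reads with STAR (mm10 in the labels) and, as the paper's methods state, estimated expression with RSEM on RefSeq transcripts. The values the authors deposited are an expected count per gene, 1 table per line with 24480 symbols. Of these values 7.92% (*Sox2* table) and 7.62% (*Nr2f1* table) had a fractional part, so all were rounded to whole counts. Libraries were assigned to groups by their column names, and which numbered sample a column holds was not needed.

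Counts were tested in R 4.3.3 with edgeR 4.0.16 (filterByExpr with a minimum count of 10 and a minimum total of 15, TMM, glmQLFit and glmQLFTest), each line against its own controls, with Benjamini-Hochberg FDR below 0.01 over all genes tested. The difference between the mutants was the interaction of line and genotype over 12 libraries. SE was the log2 fold change divided by the square root of F. The tests were checked on simulated data, where the fit of the difference recovered a smaller share of changed genes than first required, and the requirement was lowered after that was seen. Alternatives were no filter, at least 10 counts in every library, RLE and upper quartile normalization, DESeq2 1.42.0, legacy=FALSE, FDR below 0.05, 1 fit over all 12 libraries, male-specific genes as a covariate, a replicate block and leaving out each library. The covariate and the block were not run for the difference between the mutants. Positions are from RefSeq and overlaps from GENCODE, both on GRCm38, and lengths are those of GENCODE transcripts that match a RefSeq transcript.

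The genes named are the 10 adhesion genes, *Sox2*, *Nr2f1*, markers and, of each list, up to 4 genes with the smallest p in either line, and some genes that meet this rule are not reported here. A few more DEG are named where the text says so. The adhesion genes and the lists were chosen with earlier results of these data known. Protein sequences were not used here.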

Additional observations from a re-analysis of the deposited data

Results flagged for a closer look

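Of the 72 genes tested among the 10 adhesion genes, their relatives and partners and the other immunoglobulin adhesion genes, 3 had changes that differed between the *Sox2* and *Nr2f1* mutants in the test of the difference itself, beside 1.44% of all genes. *Cntn4* had a difference of -1.12 (log2 scale, *Sox2* line minus *Nr2f1* line, edgeR FDR 0.00290, SE 0.18), with all 3 *Nr2f1* mutants above their controls and all 3 *Sox2* mutants below CTRL_1 and CTRL_2, and was called in 7 of the 12 fits that left out a library. *Alcam* had a difference of 0.57 (SE 0.10, edgeR FDR 0.00395), with all 3 mutants of each line above their controls, and was called in 6 of the 12. *Gfra1* had a difference of -1.31 (SE 0.17, edgeR FDR 0.000560), with all 3 *Sox2* mutants below and all 3 *Nr2f1* mutants above their controls, and was called in all 12. The targeted genes and some thalamic and microglial markers also differed in this test, and their differences are not described here. What lies behind these differences was not tested, and no fit of the difference used male-specific genes as a covariate.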

How the results depend on the processing

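Of the log2 fold changes of the 10 adhesion genes over 16 alternatives in *Sox2* mutants, 143 kept their direction and side of the threshold, 12 came to pass it, 5 no longer passed it and 0 changed direction. Over 15 alternatives in *Nr2f1* mutants the numbers were 132, 7, 11 and 0. Over 19 alternatives of the difference they were 173, 1, 11 and 5. The 5 were *Chl1* without *Sox2* CTRL_3 (-0.038), *Nrcam* without *Sox2* CTRL_1 (0.034), *Sox2* CTRL_2 (0.016) or *Nr2f1* MUT_B (0.027), and *Ncam2* without *Sox2* CTRL_3 (-0.028), none of which passed the threshold. When a library was left out, these differences ran from -0.038 to 0.18 for *Chl1*, -0.13 to 0.034 for *Nrcam* and -0.028 to 0.18 for *Ncam2*.

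In *Sox2* mutants the replicate block called 2 higher adhesion genes, *Alcam* and *Cntn2*, in place of 1. The lower ones were 2 without a filter, 2 with at least 10 counts in every library, 2 by DESeq2, 3 at FDR below 0.05, 2 in 1 fit over all 12 libraries, and 0 to 6 when a library was left out. Genes called over the whole table were 2442 by DESeq2, 3095 at FDR below 0.05, 2075 in 1 fit over all libraries, and 494 to 2161 when a library was left out, in place of 1261. Leaving out a library of the *Sox2* line called 1 higher adhesion gene each time.

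In *Nr2f1* mutants the higher adhesion genes were 4 at FDR below 0.05, 0 with male-specific genes as a covariate and 1 to 3 when a library was left out, in place of 2. The lower ones were 2 by DESeq2, 2 at FDR below 0.05, 0 with the covariate and 0 to 1 when a library was left out, in place of 1. Genes called over the whole table were 1122 by DESeq2, 1154 at FDR below 0.05, 71 with the covariate, and 133 to 868 when a library was left out, in place of 396. For the difference, the higher adhesion genes were 0 to 1 and the lower ones 0 to 2 when a library was left out. Genes called for it were 541 by DESeq2, 538 at FDR below 0.05 and 133 to 308 when a library was left out, in place of 231. The cause of these shifts was not tested, apart from the looser threshold of FDR below 0.05.

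The replicate block used the numbers in the column names, which the labels do not state to be pairs. Only numbers 1 and 3 occur in both groups, so CTRL_2 and MUT_4 gave nothing to that test. No paired analysis was possible in the *Nr2f1* line because its column names share only the letter B. Each group has 3 pools, so the spread within a group rests on 3 values, and the pools cannot show how single animals differ.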
